A study of Mus musculus with 9 samples.

Results

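Type 2 conventional dendritic cells of the mouse thymus carrying the lectin CD301b were compared with type 1 conventional dendritic cells carrying the chemokine receptor XCR1, gene by gene. The comparison was between 6 of the 9 RNA-seq libraries of the series: the CD301b libraries numbered 1, 3 and 4 and the XCR1 libraries numbered 1, 2 and 3, identified by their titles. The 3 libraries of the third population, SIRPa, also entered the fit, where they bear on the filter and the estimated spread, and levels of SIRPa are quoted for some genes. With only the 6 libraries fitted, 1650 genes were higher and 1259 lower. Values per library are given below in the order above. All cells came from thymi of C57BL/6 mice aged 8 weeks, with no treatment or mutation named, and were digested, stained and sorted by flow cytometry. The series design names 3 mice, whereas the CD301b numbers reach 4, so it is not known which libraries share an animal or whether thymi were pooled. P-values therefore measure only the spread between the 9 libraries of the fit. The labels call the source thymocytes and the cell type thymic dendritic cells, and neither the sorting gates nor the number of sorted cells is given in the sources used here.

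Conventional dendritic cells take up, process and display antigen, and in the thymus they show self-antigen to developing thymocytes, which leads to deletion of self-reactive clones or to regulatory T cell fates. Type 1 cells (cDC1) depend on the transcription factors IRF8, BATF3 and ID2, engulf dead cells and cross-present their antigens on MHC class I. Type 2 cells (cDC2) depend on IRF4, KLF4 and ZEB2, express SIRPα and favour presentation on MHC class II. CD301b, encoded by Mgl2, marks a cDC2 subset known in skin for promoting type 2 helper T cell responses.

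Of 55278 gene symbols, 15417 had enough counts to be tested. The 6 libraries held 20211664 to 25393886 counts. Levels are in CPM, read counts relative to the library's total, with totals scaled by the trimmed mean of M-values. Values after ± are standard deviations over 3 libraries for CPM and standard errors for log2 fold changes. Among the XCR1 libraries, replicate 3 stood apart for transcripts of other cells. Its thymocyte and granulocyte gene sums, 1430 and 56.8 CPM, lay within those of CD301b, at 746 to 1578 and 48.3 to 62.5 CPM. Rag1, the recombinase of immature lymphocytes, was at 8.18, 4.99 and 115 CPM in the XCR1 libraries, and the neutrophil enzyme Mpo at 0, 0 and 7.09 CPM. CD301b replicate 1 stood apart for the heat shock gene Hspa1a, with 48.2, 231 and 276 CPM in the CD301b libraries. Results that turn on a single library are given with their value without it.

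The transcripts for which the populations are named followed the labels. Mgl2 (ENSMUSG00000040950, chr11:70130329-70137550, plus strand) was at 683, 625 and 566 CPM in CD301b and 2.34, 1.33 and 1.78 CPM in XCR1, with 23.2 ± 5.32 CPM (SD, n = 3) in SIRPa. Sirpa (ENSMUSG00000037902, chr2:129592835-129632228, plus strand) was at 705, 633 and 599.6 CPM in CD301b and 13.97, 9.03 and 14.6 CPM in XCR1. Xcr1 (ENSMUSG00000060509, chr9:123852315-123862029, minus strand) was at 0.319, 0.461 and 1.08 CPM in CD301b and 782, 854 and 663 CPM in XCR1. The groups did not overlap for any of the 3 genes, and since the populations are named for these proteins the values check the labels and are no finding. Mgl2 has a near-identical neighbour, Clec10a, so reads may be split between them. Irf4 (ENSMUSG00000021356, chr13:30749226-30766976, plus strand), a transcription factor of cDC2, was at 276, 256 and 224 CPM in CD301b and 8.18, 13.7 and 8.05 CPM in XCR1. Clec9a (ENSMUSG00000046080, chr6:129408862-129424763, plus strand), the dead-cell receptor of cDC1, was at 8.16, 9.89 and 8.51 CPM in CD301b and 206, 194 and 156 CPM in XCR1. Neither gene overlapped between the populations, with log2 fold changes (CD301b minus XCR1, ± SE) of 4.66 ± 0.18 (adjusted p = 2.28e-13) and -4.39 ± 0.18 (adjusted p = 9.59e-14). In bulk libraries, fewer cells of a type and less RNA per cell cannot be told apart.

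At an adjusted p under 0.05, 3487 of the 15417 tested genes (22.6%) differed. Of these, 2081 (13.5%) were higher in CD301b and 1406 (9.12%) were lower. These shares over all tested genes are the measure for the counts of gene lists below. The higher genes differed more: 1366 were at least 2-fold and 647 at least 8-fold higher, against 554 and 153 lower, with genes at 0 in a group taken at their bound. The median log2 fold change was 1.54 for the higher genes and -0.82 for the lower ones, and 0.05 over all tested genes. For 207 higher genes the XCR1 libraries held no read, and for 50 lower genes the CD301b libraries held none. Among the 3487 called genes, all CD301b libraries lay above all XCR1 libraries for 1997 and below them for 1357. Over all 15417 tested genes these counts were 2929 and 2371. Lack of overlap, given for single genes below, thus held for most called genes and adds little to a call.

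**Figure D1:**
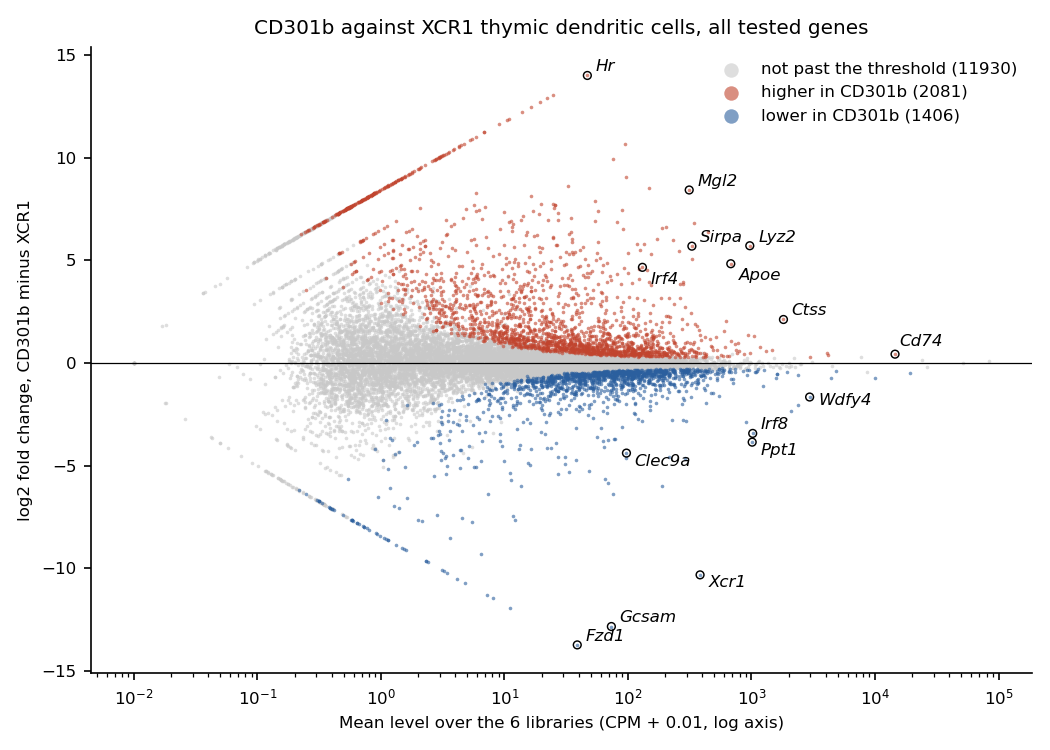
Each point is a tested gene: the x axis is the mean level over the 6 libraries (CPM + 0.01, log axis) and the y axis the log2 fold change, CD301b minus XCR1. Red and blue points passed the threshold (2081 higher and 1406 lower in CD301b). The straight rising and falling edges are genes with few or no reads in the other population, such as Hr and Fzd1, whose fitted fold changes depend on a prior count.

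Several of the largest fold differences were in genes read in 1 population and not in the other. Hr (chr14:70552212-70573548, plus strand), which encodes the nuclear corepressor hairless, was at 93.8, 104 and 82.99 CPM in CD301b, without a read in XCR1, and at 8.98 ± 1.41 CPM in SIRPa. Against 3 reads over the XCR1 group, the floor used for a count of 0, it was at least 1932-fold higher. By the same bound, F10 (coagulation factor X) was at least 1015-fold, Pi16 (a peptidase inhibitor) at least 916-fold and Spon1 (the matrix protein F-spondin) at least 800.4-fold higher. Tarm1, Clec4a3, Podn and Cd300lg were also at 0 in every XCR1 library. Ngfr, the p75 neurotrophin receptor, was at 153, 171 and 126 CPM in CD301b and 0, 0 and 0.434 CPM in XCR1.

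Among genes lower in CD301b, the Wnt receptor gene Fzd1 (chr5:4753839-4758035, minus strand) was at 0 in the CD301b libraries and 82.3, 91.8 and 58.98 CPM in XCR1, a difference of at least 1797-fold. Gcsam (chr16:45610380-45622867, plus strand), an adaptor first described in germinal centre B cells, had a single read in CD301b and 153, 146 and 141 CPM in XCR1, a ratio of 10177 with an exact 95% counting interval from 1826 to 402003. Naalad2, a membrane peptidase, was at 0 in CD301b and 26.9, 21.4 and 18.6 CPM in XCR1. The rest of the 12 largest were Xcr1, Dgkk, Abca13, Dbn1, Gpr141b, Clnk, Cd207, Homer2 and Notch4. These 12 were drawn only from genes whose groups did not overlap. Dbn1, which encodes the actin-binding drebrin, was at 0.757, 3.06 and 1.47 CPM in CD301b and 185, 131 and 132 CPM in XCR1.

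By difference in mean CPM, which is not corrected for transcript length, the genes highest in CD301b included lysosomal, secreted and MHC class II genes. They were Ctss, Lyz2, Apoe, C3, Ctsb, Fth1, Ifi30, Cd74, H2-Aa and H2-Eb1. Lyz2, lysozyme of myeloid cells, was at 1866, 2058 and 1779 CPM in CD301b and 33.2, 24.6 and 51.3 CPM in XCR1, and 2697 ± 214 CPM in SIRPa. The lower genes by the same measure were Actb, Malat1, Cst3, Mpeg1, Psap, Wdfy4, Ppt1, Irf8, Naaa and Tmsb4x. Cst3, which encodes the protease inhibitor cystatin C, was at 996, 989 and 773 CPM in CD301b and 3872, 4222 and 3367 CPM in XCR1. Malat1, a nuclear noncoding RNA, was at 5853, 6324 and 10129 CPM and 11291, 12464 and 13497 CPM, and passed at an adjusted p of 0.0124, or not when CD301b replicate 3 was left out (adjusted p = 0.0564).

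**Figure D2:**
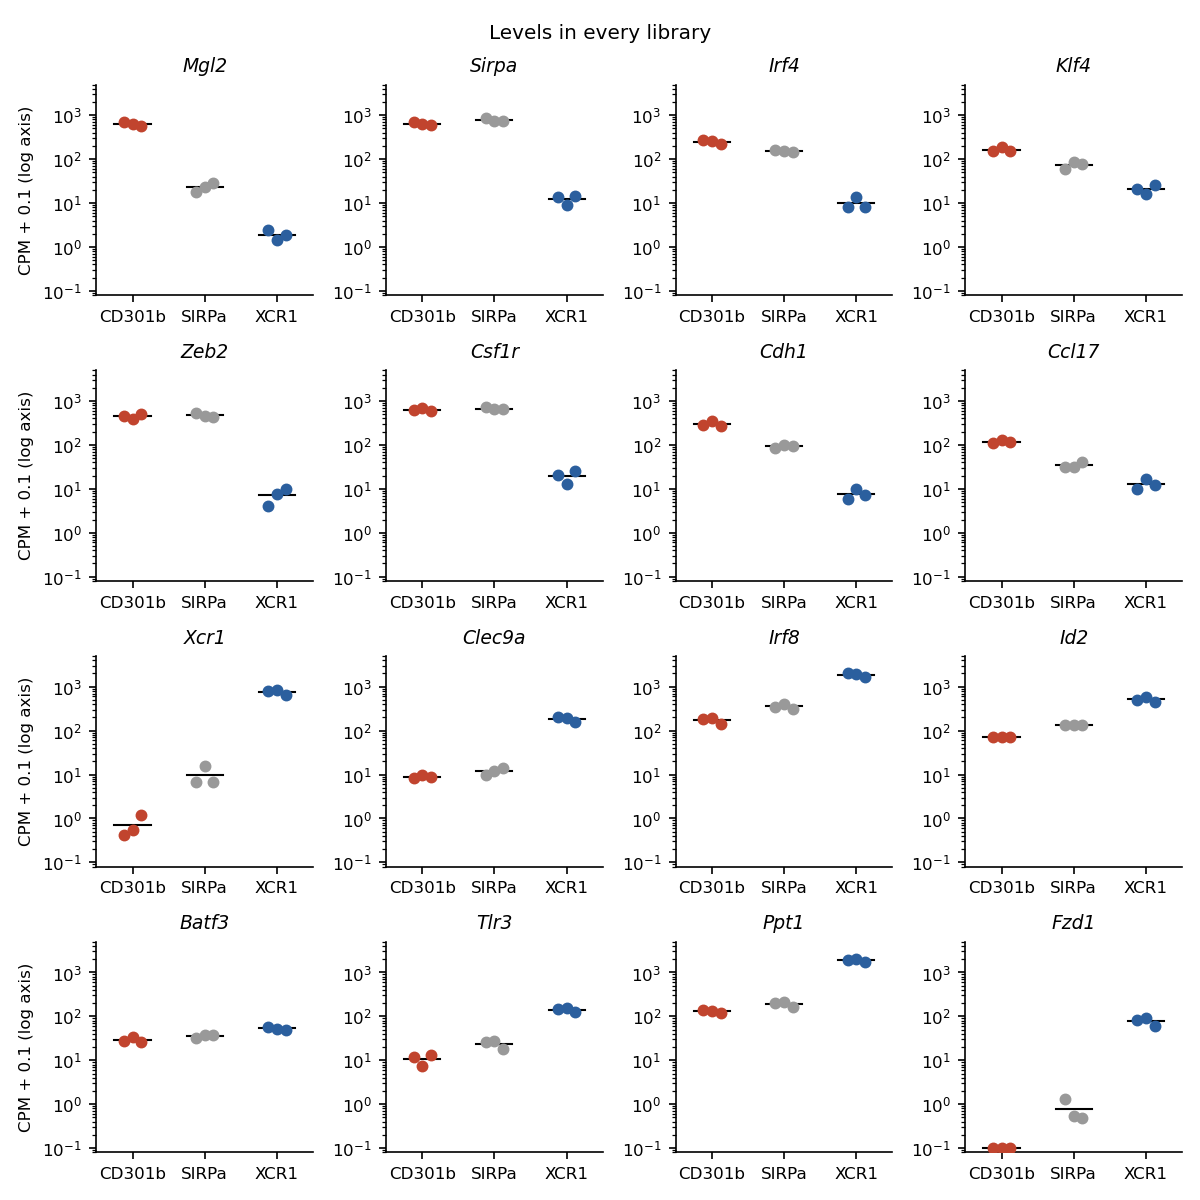
Levels of 16 genes in every library (CPM + 0.1, log axis), with a point per library and a line at the mean of 3 libraries for CD301b, SIRPa and XCR1. Mgl2 to Ccl17 in the upper rows lie higher in CD301b than in XCR1 and Xcr1 to Fzd1 in the lower rows lie lower, with no overlap between those populations.

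Transcription factors of dendritic cell lineages split in both directions. Among 39 tested, 20 had higher levels in CD301b and 9 lower ones, while 10 did not pass, at a median log2 change of 0.39. Zeb2, a repressor needed for cDC2, was at 464, 398 and 508 CPM in CD301b and 3.99, 7.36 and 10.03 CPM in XCR1 (log2 fold change 5.998 ± 0.30, adjusted p = 4.86e-07). Klf4, which CD301b-positive cDC2 require, was at 150.1, 189 and 149 CPM and 20.7, 15.7 and 25.3 CPM, with 74.2 ± 13.6 CPM in SIRPa. Both were higher in every CD301b library. Tcf4, the plasmacytoid regulator E2-2, was higher by 3.16 ± 0.14 (adjusted p = 4.04e-13). Runx1, Runx2, Bhlhe40, Cebpa and Prdm1 were also higher, from 1.68 (Runx1) to 3.95 (Cebpa) on the log2 scale.

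On the cDC1 side, Irf8 (chr8:120736358-120756694, plus strand) was at 186, 195 and 140.04 CPM in CD301b and 2034, 1938 and 1645 CPM in XCR1. Id2 (chr12:25093799-25097140, minus strand), an inhibitor of E proteins such as E2-2, was at 72.2, 72.4 and 70.3 CPM and 505, 590.3 and 452 CPM. The log2 fold changes were -3.43 ± 0.14 (adjusted p = 5.15e-13) and -2.85 ± 0.11 (adjusted p = 8.06e-14), and no library of 1 population reached the other. Batf3, the partner of IRF8 in cDC1, was at 27.1, 33.4 and 25.7 CPM in CD301b and 58.02, 51.8 and 49.9 CPM in XCR1, a far smaller difference (-0.89 ± 0.17, adjusted p = 4.16e-04). Mycl (L-Myc, -2.80 ± 0.17), Zfp366 (DC-SCRIPT, -1.45 ± 0.12) and the repressor Bcl6 (-1.10 ± 0.12) were lower in CD301b as well. Zbtb46, a transcription factor of all conventional dendritic cells, was at 147 ± 9.78 CPM (SD, n = 3) in CD301b and 177 ± 24.9 in XCR1 and did not pass (adjusted p = 0.139).

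All 20 genes listed for cDC1 identity were lower in CD301b, at a median log2 change of -3.74. The list holds Xcr1, after which 1 population is named. Ppt1, a lysosomal thioesterase, was at 139.6, 131 and 122 CPM in CD301b and 1936, 1986 and 1764 CPM in XCR1. Wdfy4, required for cross-presentation by cDC1, was at 1388, 1592 and 1289.7 CPM and 4952, 4467 and 4051 CPM. Rab7b, an endosomal GTPase, was at 20.1, 15.6 and 16.4 CPM and 451, 405 and 375 CPM. The 3 genes were each lower in every CD301b library, with log2 fold changes of -3.85 ± 0.11, -1.66 ± 0.11 and -4.56 ± 0.14. Naaa, a lysosomal amidase, and Itgae, the CD103 integrin chain, were lower too (-2.88 ± 0.16 and -2.76 ± 0.14). Cd8a, a marker of lymphoid-organ cDC1, differed least in the list (-1.09 ± 0.11) and was at 121, 113 and 117 CPM in CD301b against 225, 257 and 263 CPM.

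Of the 20 genes listed for cDC2 identity, 18 were higher in CD301b, at a median log2 change of 5.30, or 5.17 with the gene at 0 in XCR1 taken at its bound. The list holds Mgl2 and Sirpa, after which populations of the series are named. Csf1r, the receptor of the macrophage growth factor CSF1, was at 627, 698 and 592 CPM in CD301b and 20.7, 12.5 and 24.9 CPM in XCR1. Cdh1, E-cadherin, was at 279, 341 and 271 CPM and 5.69, 9.64 and 7.14 CPM, and 92.9 ± 5.82 CPM in SIRPa. Both passed with no overlap (5.04 ± 0.21, adjusted p = 1.40e-09, and 5.31 ± 0.18, adjusted p = 5.39e-15). The inhibitory lectin gene Clec12a went the other way, at 16.2, 26.1 and 20.6 CPM in CD301b and 102, 119 and 93.6 CPM in XCR1 (adjusted p = 2.09e-09). Esam, an adhesion molecule of Notch-dependent cDC2, was at 1.91, 0.2096 and 0.587 CPM and 3.99, 3.09 and 3.95 CPM with an adjusted p of 0.0546. It passed as lower without CD301b replicate 1 (adjusted p = 0.007896), with upper quartile factors (0.0467), by DESeq2 (0.0213), by limma-voom (0.0475) and without a filter on low counts (0.0484).

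**Figure D3:**
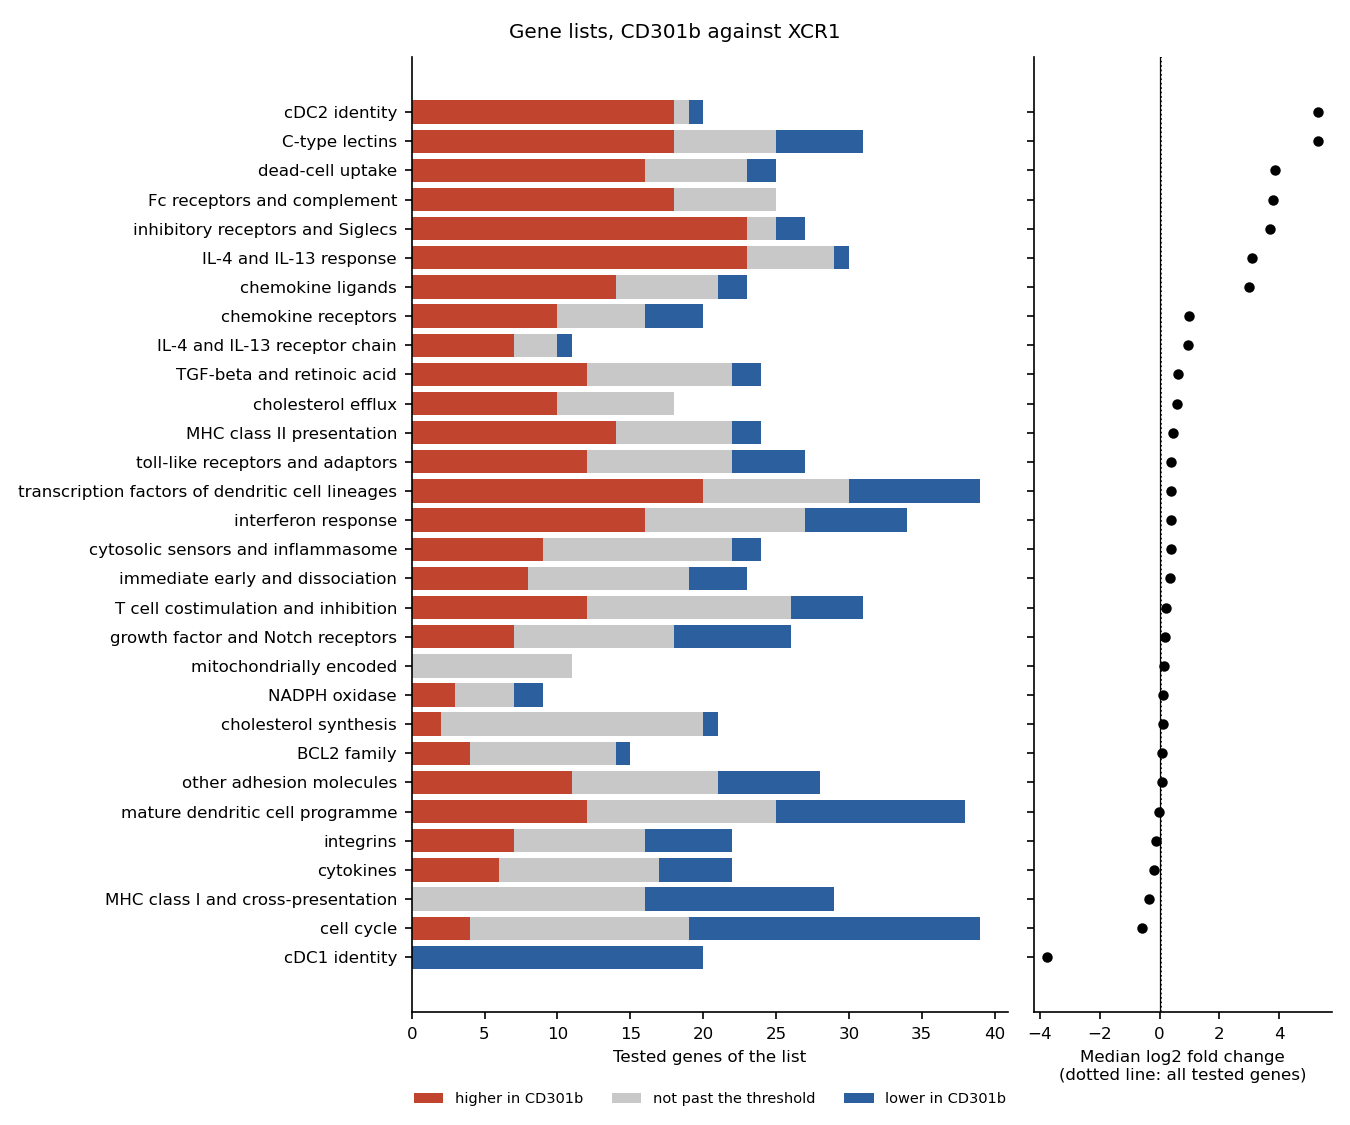
Left, for each gene list, the number of tested genes higher in CD301b (red), not past the threshold (grey) and lower (blue). Right, the list's median log2 fold change, CD301b minus XCR1, with a dotted line at the median of all tested genes (0.05). The cDC1 list lies at -3.74, and the cDC2 and C-type lectin lists at 5.30 and 5.29, which is 5.17 and 3.81 with genes at 0 in a group at their bounds. The cDC1 list holds Xcr1, the lectin list Mgl2 and the cDC2 list Mgl2 and Sirpa, after which populations are named.

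C-type lectins bind sugars on pathogens and self-glycoproteins. CD301b was higher for 18 and lower for 6 of 31 tested. The median log2 fold change was 5.29, or 3.81 with the 6 genes at 0 in a group taken at their bounds. The list holds Mgl2, after which the CD301b population is named. Among the DC-SIGN family, Cd209d was at 177, 197 and 193 CPM in CD301b and 0, 0 and 0.338 CPM in XCR1. Cd209a was at 321, 295 and 264 CPM and 0, 0.855 and 1.495 CPM, and Cd209e at 193 ± 19.8 against 0.354 ± 0.613 CPM. These genes, like the Clec4a genes, have near-identical copies, so how reads fell among them is uncertain. Clec7a, the β-glucan receptor dectin-1, was at 506, 518 and 494 CPM in CD301b and 8.33, 8.55 and 17.9 CPM in XCR1. Langerin (Cd207) was the reverse, at 0.836, 3.48 and 2.69 CPM in CD301b and 156, 123 and 125 CPM in XCR1 (adjusted p = 0.002497). Ly75, the endocytic receptor DEC-205, was also lower in CD301b (-1.79 ± 0.10).

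Toll-like receptors sense microbial products at the surface and nucleic acids in endosomes. Among 27 receptors and adaptors tested, CD301b was higher for 12 and lower for 5, with a median of 0.39. Tlr3, the endosomal sensor of double-stranded RNA, was at 12.03, 7.46 and 13.02 CPM in CD301b and 146, 158 and 124 CPM in XCR1. Tlr11, which senses profilin of protozoa with TLR12, was at 11.6, 7.59 and 8.76 CPM and 149.7, 107 and 126 CPM. Tlr12 was at 17.01, 21.8 and 18.6 CPM and 61.1, 57.3 and 47.6 CPM, so that these 3 receptors known from cDC1 were lower in each CD301b library. The flagellin receptor gene Tlr5 was at 22.8, 15.9 and 28.1 CPM in CD301b and 0.0499, 0 and 0.482 CPM in XCR1. Tlr1, a partner of TLR2, and Tlr8, a sensor of RNA fragments, were higher by 3.95 ± 0.47 and 4.91 ± 0.71. The DNA sensor gene Tlr9 was higher by 0.39 ± 0.12 (adjusted p = 0.0256), a call lost without CD301b replicate 3 or XCR1 replicate 2 or 3 (adjusted p up to 0.146). Ly86 encodes MD-1, the partner of CD180: Ly86 was higher in CD301b (2.29 ± 0.11) and Cd180 lower (-1.05 ± 0.14).

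Cytosolic sensors and inflammasome genes comprised 24 tested genes, 9 of them higher and 2 lower in CD301b. The inflammasome product Il1b was at 98.7, 84.4 and 82.8 CPM in CD301b and 8.98, 12.9 and 7.72 CPM in XCR1. Its protease Casp1 (2.13 ± 0.23) and Tmem173, which encodes the DNA-signalling adaptor STING (1.53 ± 0.17), were also higher. Ifi205, a DNA-binding member of the HIN-200 family with near-identical copies, was at 29.95, 14.8 and 23.3 CPM in CD301b and 556, 599.8 and 527 CPM in XCR1. The other lower gene, Nod2, passed at an adjusted p of 0.0283 and lost its call without CD301b replicate 3 or 4 or XCR1 replicate 1 or 2 (adjusted p up to 0.115).

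Uptake of dead cells is known best for cDC1. Of 25 tested receptors, bridging proteins and engulfment factors, 16 were higher, 2 were lower and 7 did not pass, at a median log2 change of 3.86. Axl, a receptor for phosphatidylserine-bridging proteins, was at 546, 519.8 and 491 CPM in CD301b and 34.4, 34.02 and 38.8 CPM in XCR1. Timd4, a direct phosphatidylserine receptor, was at 71.9, 46.99 and 62.5 CPM and 1.35, 1.900 and 3.23 CPM. The scavenger receptor gene Lrp1 (4.11 ± 0.15), the integrin chain Itgb5 (4.32 ± 0.16) and the engulfment factor Dock1 (2.90 ± 0.19) were likewise higher. The 2 lower genes were Clec9a and Cd36, the latter at 9.24, 8.55 and 4.65 CPM in CD301b and 186, 190.4 and 178 CPM in XCR1. Axl, Timd4, Mertk and Marco are also on the macrophage list, which is given with its levels further on.

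Of 25 tested Fc receptor and complement genes, 18 were higher in CD301b, with a median of 3.78, or 3.62 with genes at 0 in a group at their bounds. None was lower by edgeR, by DESeq2 or limma-voom, or at an unadjusted p under 0.05 (0 genes). Fcgr2b, the inhibitory IgG receptor, was at 309, 256 and 295 CPM in CD301b and 27.5, 17.5 and 17.6 CPM in XCR1. Complement C3 was at 1016, 904 and 731 CPM and 6.78, 4.94 and 20.4 CPM. The C1q chains C1qa, C1qb and C1qc were at 401 ± 20.7, 373 ± 42.5 and 341 ± 16.7 CPM in CD301b and 3.996 ± 5.15, 3.96 ± 2.89 and 5.23 ± 3.37 CPM in XCR1. For C3 and C1qa the highest XCR1 library was replicate 3 (20.4 and 9.93 CPM), below every CD301b library. These C1q chains are on the macrophage list too.

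Of 24 tested genes of MHC class II presentation, 14 were higher, 2 were lower and 8 did not pass, with a median of 0.47. The cathepsins, which degrade antigen and invariant chain in endosomes, were among the genes that differed most. Ctss was at 3197, 2961 and 2691 CPM in CD301b and 648, 749 and 643 CPM in XCR1, and Ctsb at 1073, 965 and 968 CPM and 228, 266 and 247 CPM. Ctsd was at 207, 216 and 182 CPM in CD301b and 9.98, 7.03 and 23.97 CPM in XCR1, where replicate 3 was the highest. Log2 fold changes were 2.12 ± 0.097, 2.02 ± 0.10 and 3.88 ± 0.44, and Ctsc (2.43 ± 0.10), Ctsh (1.88 ± 0.10) and the asparaginyl protease Lgmn (2.03 ± 0.11) were alike in direction. Ctsd shares 808 of its 2351 exonic bases with the predicted gene Gm49369 on the same strand, so its reads are uncertain. Ifi30, a thiol reductase of endosomes, was higher by 1.33 ± 0.11.

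The class II chains themselves differed by smaller amounts. H2-Aa was at 4941, 4991 and 4553 CPM in CD301b and 3381, 3753 and 3079 CPM in XCR1 (0.50 ± 0.092, adjusted p = 2.92e-04). Cd74, the invariant chain, and H2-Eb1 were higher by 0.43 ± 0.096 and 0.39 ± 0.10 (adjusted p = 0.00205 and 0.00737). H2-Ab1 was at 8467 ± 853 CPM in CD301b and 7025 ± 680.1 CPM in XCR1 with overlapping libraries, and did not pass (adjusted p = 0.0622). It passed as higher without CD301b replicate 4 (adjusted p = 0.0115) or XCR1 replicate 2 (adjusted p = 0.0418), by DESeq2 (0.03195) and without a filter (0.0325). Ciita, the class II transactivator, was at 589.9 ± 22.5 CPM and 500.2 ± 56.8 CPM (adjusted p = 0.0927), and passed as higher without XCR1 replicate 1 (adjusted p = 0.0316) and by limma-voom (0.0362). Among the peptide-loading genes, H2-DMb2 was higher in CD301b (1.97 ± 0.15), whereas H2-Ob, of the inhibitor H2-O, was lower (-0.59 ± 0.15, adjusted p = 0.00521). The other lower gene, Rfxap (adjusted p = 0.0175), lost its call without CD301b replicate 4 or XCR1 replicate 1 (adjusted p up to 0.162).

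For MHC class I and cross-presentation, 13 of 29 tested genes were lower in CD301b and 16 did not pass, with a median of -0.36. None was higher by edgeR fitted over all 9 libraries without a replicate block, or by DESeq2. By limma-voom 1 was higher, and at an unadjusted p under 0.05 there were 2. In the edgeR fit without XCR1 replicate 2, 2 were higher and 11 lower. Psmb9, a subunit of the immunoproteasome, was at 61.3, 72.4 and 57.7 CPM in CD301b and 171, 209 and 153 CPM in XCR1. Tap1, of the peptide transporter, was at 249, 294 and 231 CPM and 464, 529 and 458 CPM. Tap2 (-0.98 ± 0.12) and the proteasome activator Psme1 (-0.995 ± 0.11) were lower to a like extent, and no library of 1 population reached the other for these 4 genes. Psmb9 and Tap1 overlap on opposite strands, and the strand setting of the counting is not given, so a part of their reads may be shared. The heavy chain H2-K1 was at 1472, 1409 and 1157 CPM in CD301b and 1550.5, 1582 and 1328 CPM in XCR1, and did not pass (adjusted p = 0.372). B2m, the light chain, was at 2646, 2233 and 2312 CPM and 1914, 2308 and 1903 CPM (adjusted p = 0.101) and passed as higher without XCR1 replicate 2 (adjusted p = 0.0282) and by limma-voom (0.0167).

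**Figure D4:**
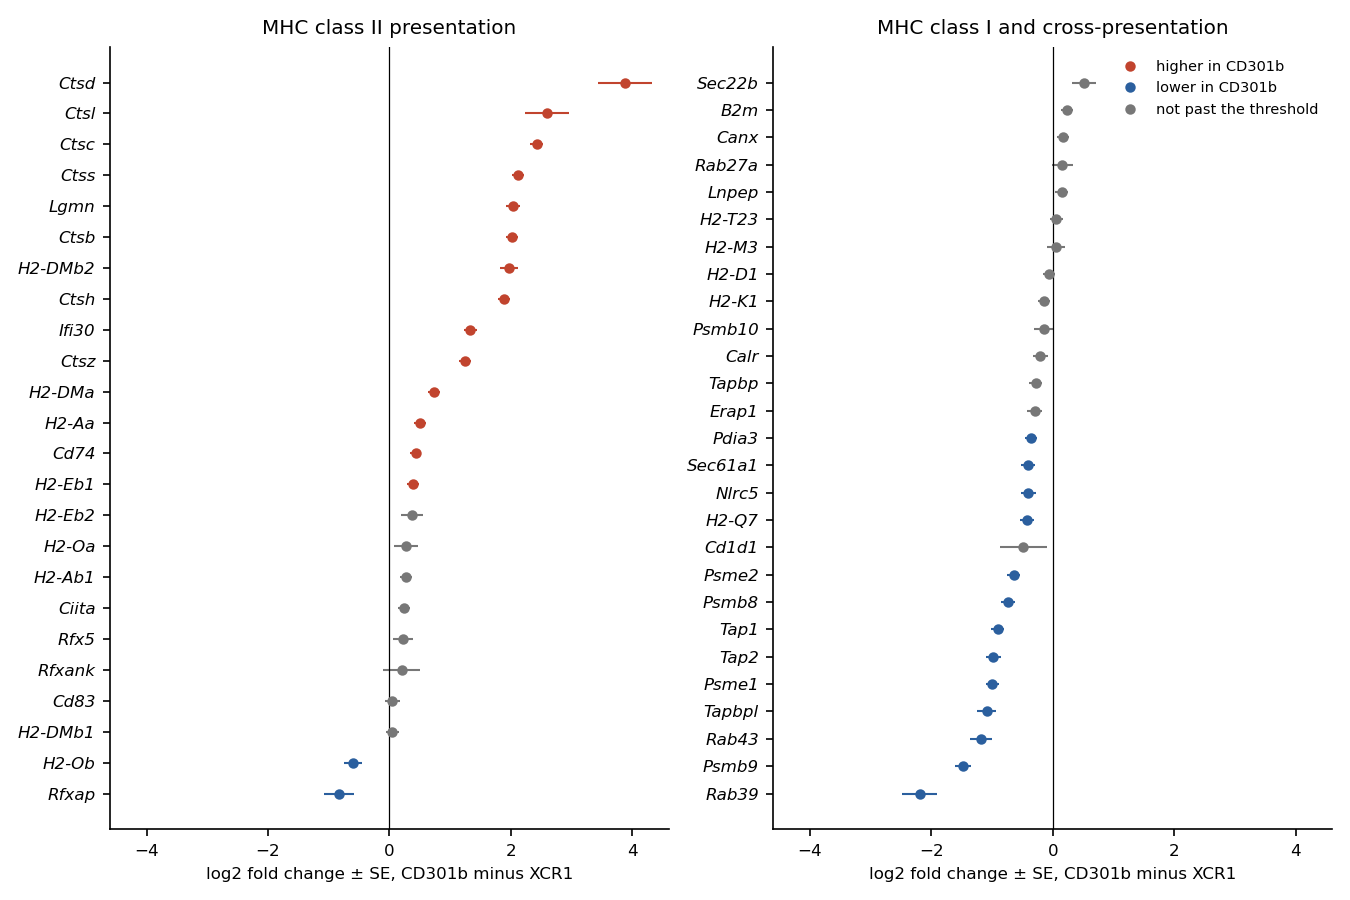
Log2 fold changes ± SE (CD301b minus XCR1) of the tested genes of MHC class II presentation (left) and MHC class I and cross-presentation (right) with a mean of at least 5 CPM. Cathepsins and other endosomal enzymes lie to the right of 0 on the left panel, from Ctsd at 3.88 down, and Psmb9 (-1.48), Tap1 and Tap2 lie to the left on the right panel.

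The phagosomal NADPH oxidase, whose oxidants limit acidification and proteolysis, differed in single subunits. CD301b was higher for 3 and lower for 2 of 9 genes, against 13.5% higher and 9.12% lower over all tested genes. Cybb, the catalytic subunit, was at 768, 645 and 642 CPM in CD301b and 4.74, 0.1900 and 13.02 CPM in XCR1 (6.84 ± 0.93, adjusted p = 0.002398). Ncf4, a regulatory subunit, was lower (-1.44 ± 0.15). The other lower gene, Vav1, an activator of RAC, passed at an adjusted p of 0.0361 and lost its call without CD301b replicate 1 or 4 or XCR1 replicate 1 or 2 (adjusted p up to 0.145).

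The series title concerns type 2 cytokines, and IL-4 and IL-13 signal through IL4RA paired with IL2RG or IL13RA1, JAK kinases and STAT6. This chain had 11 tested genes, with 7 higher and 1 lower in CD301b. Il2rg, which shares 728 of its 2387 exonic bases with the predicted gene Gm20489, was at 152, 139.9 and 163 CPM in CD301b and 25.8, 40.2 and 29.9 CPM in XCR1. Il13ra1 was at 219, 167 and 178 CPM and 71.8, 63.9 and 57.4 CPM, with 87.6 ± 4.54 CPM in SIRPa. Both partner chains were thus higher in each CD301b library (2.25 ± 0.15 and 1.55 ± 0.13), and Jak2 was higher by 0.94 ± 0.092. The shared chain Il4ra was at 102, 104 and 65.9 CPM and 80.02, 102 and 70.6 CPM, with overlapping libraries (adjusted p = 0.731). Stat6 was at 175, 168 and 148 CPM and 142, 152 and 145 CPM (adjusted p = 0.333). The lower gene, Tyk2 (adjusted p = 0.0323), lost its call without CD301b replicate 3 or 4 or XCR1 replicate 1 or 2 (adjusted p up to 0.177).

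Of 30 tested genes known to respond to IL-4 or IL-13 in myeloid cells, 23 had higher levels in CD301b and 1 (Bcl6) had a lower one, with 6 not passing and a median of 3.10. Without CD301b replicate 4, 2 were lower. The list holds Mgl2, after which 1 population is named, and 4 other genes of the cDC2 list, Clec10a, Clec7a, Cdh1 and Mrc1. It also holds Irf4 and Klf4, transcription factors of cDC2 that were higher in CD301b. Ccl17 (chr8:94810453-94812036, plus strand), a ligand of CCR4, was at 109.5, 131 and 116 CPM in CD301b and 9.88, 16.5 and 11.9 CPM in XCR1, with 34.3 ± 4.71 CPM in SIRPa. Its relative Ccl22 was at 920.4, 873 and 914 CPM and 508, 672 and 577 CPM, a smaller difference (3.22 ± 0.19 against 0.62 ± 0.10). Retnla, a secreted marker of alternative activation, was at 10.6, 7.04 and 5.87 CPM in CD301b and had no read in XCR1, at least 162-fold. Flt1, a VEGF receptor, was at 115, 129 and 78.05 CPM and 8.38, 6.22 and 8.198 CPM, and the inhibitory receptor Cd200r1 at 72.1, 65.8 and 68.6 CPM and 1.25, 1.85 and 1.74 CPM. Pdcd1lg2 (PD-L2, 1.98 ± 0.24) and the transcription factor Egr2 (2.44 ± 0.23) were higher too.

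STAT6 is known to bind the palindrome TTCNNNNGAA, which reads the same on both strands. In the 250 bases before the start in the RefSeq promoter table (GRCm38.p6), it was present for 6 of the 20 tested response genes with an entry. These were 5 of 15 genes higher in CD301b, 0 of 1 lower and 1 of 4 that did not pass. Of all 32851 promoters in that table, 5.85% held it. Counted by gene, as for the list, 5.71% of the 10297 tested genes with an entry held it. The matches of 3 genes that were higher in CD301b are shown with 40 bases on each side to place the motif, in capitals; a match is a description and not a bound site. Ccl17 is shown from chr8:94810259-94810348, Retnla from chr16:48842424-48842513 and Pdcd1lg2 from chr19:29410797-29410886, all on the plus strand.
Ccl17: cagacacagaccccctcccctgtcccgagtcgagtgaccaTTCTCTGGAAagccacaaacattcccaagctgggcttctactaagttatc
Retnla: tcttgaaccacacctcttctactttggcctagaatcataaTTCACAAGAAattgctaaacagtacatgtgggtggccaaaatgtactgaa
Pdcd1lg2: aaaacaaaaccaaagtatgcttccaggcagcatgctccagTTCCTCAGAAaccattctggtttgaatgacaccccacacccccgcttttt

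Chemokine ligands numbered 23 tested genes, 14 higher and 2 lower in CD301b. Ccl9 was at 118, 105 and 101 CPM in CD301b and 1.497, 0.5701 and 0.627 CPM in XCR1, and Ccl12, a relative of the CCR2 ligands, was at 10.2, 11.7 and 9.74 CPM in CD301b and without a read in XCR1. The lower ligands were Ccl5, which attracts T cells, at 70.9, 82.6 and 55.7 CPM in CD301b and 267, 254 and 279.8 CPM in XCR1, and Cxcl9, a ligand of CXCR3, at 63.5, 40.9 and 52.1 CPM and 154, 156 and 124 CPM. Cxcl10, another CXCR3 ligand, was higher in CD301b (3.11 ± 0.36). Cxcl16 was at 479.7 ± 31.8 and 510.2 ± 45.4 CPM (adjusted p = 0.615).

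CD301b was higher for 10 and lower for 4 of 20 chemokine and related receptors tested. The list holds Xcr1, after which the XCR1 population is named. Ccr2, the receptor of monocyte chemoattractants, was at 551, 465 and 468 CPM in CD301b and 23.8, 31.3 and 49.6 CPM in XCR1. Cx3cr1 was at 199.8, 178 and 161 CPM and 1.197, 0.143 and 1.78 CPM. Gpr183, an oxysterol receptor that positions cDC2, was at 184, 162 and 149.9 CPM and 11.4, 11.3 and 12.01 CPM. All 3 were higher in every CD301b library (3.82 ± 0.24, 7.43 ± 0.44 and 3.84 ± 0.14). Cxcr3 had no read in CD301b and was at 19.8, 9.502 and 13.9 CPM in XCR1. Ccr7, which guides dendritic cells to the thymic medulla and to lymph nodes, was lower in CD301b, at 164, 169 and 155 CPM against 257, 326 and 207 CPM (-0.70 ± 0.13, adjusted p = 3.94e-04).

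Ligands that stimulate or inhibit T cells numbered 31 tested genes, with 12 higher and 5 lower in CD301b. Cd86, a ligand of CD28, was at 87.1, 85.9 and 108 CPM in CD301b and 266, 317 and 265 CPM in XCR1 (-1.59 ± 0.13, adjusted p = 4.03e-09). Cd80 was at 28.8, 19.2 and 26.4 CPM and 35.4, 35.7 and 27.9 CPM, and Cd40 at 118, 132 and 127 CPM and 120.3, 136 and 119 CPM, neither passing (adjusted p = 0.142 and 0.968). The inhibitory PD-1 ligands Cd274 and Pdcd1lg2 were higher in CD301b, by 1.02 ± 0.15 and 1.98 ± 0.24. Btla (-1.85 ± 0.13) and the Notch ligand Jag1 (-2.24 ± 0.30) were lower. Among 22 cytokine genes, 6 were higher and 5 lower. Il12b, the chain shared by IL-12 and IL-23, was at 13.1, 11.2 and 9.59 CPM in CD301b and 131, 181 and 126 CPM in XCR1. Il15ra, which presents IL-15 to neighbouring cells, was at 11.1, 8.22 and 11.3 CPM and 37.1, 28.6 and 36.8 CPM. Both were lower in every CD301b library; the count of lower cytokine genes was 3 without XCR1 replicate 3.

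Genes of the mature, migratory dendritic cell programme split in both directions, with 12 of 38 higher, 13 lower and a median of -0.018. Il4i1, an amino acid oxidase, was at 568, 634 and 492 CPM in CD301b and 145, 198 and 145 CPM in XCR1, and the class Ib gene H2-M2 at 413, 455 and 379 CPM and 140.1, 137 and 123 CPM. Il4i1 shares 3423 of its 4080 exonic bases with Tbc1d17 on the other strand, so its reads are uncertain. Laptm4b, a lysosomal membrane protein, was lower, at 3.86, 2.35 and 3.52 CPM and 50.9, 55.3 and 39.9 CPM.

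Genes of TGF-β signalling and retinoic acid, which act on regulatory T cell development, numbered 24 tested, with 12 higher and 2 lower in CD301b, and 4 lower without CD301b replicate 4. Tgfbr1 was at 369.7, 303 and 332 CPM in CD301b and 61.01, 70.7 and 76.1 CPM in XCR1. Aldh1a2, which makes retinoic acid, was at 35.1, 20.04 and 29.3 CPM and 1.95, 0.523 and 0.386 CPM, and the receptor gene Rarg at 30.6 ± 1.84 and 3.301 ± 1.09 CPM. The 3 genes did not overlap between the populations (2.27 ± 0.12, 4.89 ± 0.48 and 3.21 ± 0.26). The lower genes lost their calls without single libraries: Skil (adjusted p = 0.0242) without CD301b replicate 1 or XCR1 replicate 2 (adjusted p up to 0.103), and Ltbp1 (adjusted p = 0.0273) without CD301b replicate 3 or XCR1 replicate 1 (adjusted p up to 0.108).

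CD301b was higher for 7 and lower for 8 of 26 growth factor, Wnt and Notch receptor genes. Besides Csf1r, the VEGF receptors and co-receptors Flt1, Kdr (1.70 ± 0.13), Nrp1 (2.26 ± 0.23) and Nrp2 (3.06 ± 0.15) were higher. Kit, the stem cell factor receptor, was at 55.8, 52.9 and 63.7 CPM in CD301b and 257, 250.2 and 225 CPM in XCR1. Flt3, the receptor on which conventional dendritic cells depend, was lower by a smaller amount, at 348, 325 and 306 CPM and 548, 542 and 465 CPM (-0.67 ± 0.098). Notch4 was at 0.916, 1.38 and 5.53 CPM in CD301b and 138, 122 and 121 CPM in XCR1, while Notch2, needed by Esam-positive cDC2, was at 325, 349 and 297 CPM and 589, 469.7 and 395 CPM (-0.58 ± 0.12, adjusted p = 0.00119). Fzd7 (-1.38 ± 0.22) was lower beside Fzd1.

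Interferon-response genes diverged. Among 34 tested, 16 had higher levels in CD301b and 7 lower ones, with 11 not passing and a median of 0.38. Ifit3, an RNA-binding antiviral protein, was at 67.4, 59.4 and 47.6 CPM in CD301b and 1.65, 3.28 and 1.54 CPM in XCR1. Oasl2 was at 164, 150.04 and 127 CPM and 15.7, 17.01 and 14.6 CPM, and the membrane protein gene Ifitm3 at 101, 81.04 and 73.8 CPM and 10.1, 5.32 and 9.501 CPM. Ifit, Oas and Gbp genes have near-identical copies. Stat2, a signalling factor of the type I interferon pathway, was lower in CD301b, at 114, 131 and 113 CPM against 175, 186 and 156 CPM in XCR1 (-0.53 ± 0.11, adjusted p = 0.00113). Isg15, a ubiquitin-like protein, was at 56.9, 56.8 and 39.6 CPM in CD301b and 59.9, 58.4 and 36.3 CPM in XCR1, with overlapping libraries (adjusted p = 0.981).

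Many interferon-induced genes are known to carry the repeat GAAANNGAAA, or TTTCNNTTTC on the other strand. In the same 250 bases, searched on both strands, 14 of the 27 tested interferon-response genes with an entry held it. The share was 3.54% over all 10297 tested genes with an entry, and 2.98% over all promoters in the table. By call, the 14 genes were 9 of 13 higher genes, 1 of 6 lower genes and 4 of 8 that did not pass. A match was thus present in genes of each kind, and the windows of Ifit3 (higher), Stat2 (lower) and Isg15 (not passing) are shown to let them be compared, with the repeats in capitals. They lie at chr19:34583333-34583422 on the plus strand, chr10:128270248-128270325 on the plus strand and chr4:156200847-156200936 on the minus strand (GRCm38.p6).
Ifit3: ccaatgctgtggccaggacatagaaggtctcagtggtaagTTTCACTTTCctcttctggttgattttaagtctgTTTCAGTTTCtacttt
Stat2: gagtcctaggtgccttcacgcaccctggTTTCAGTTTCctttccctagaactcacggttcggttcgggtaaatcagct
Isg15: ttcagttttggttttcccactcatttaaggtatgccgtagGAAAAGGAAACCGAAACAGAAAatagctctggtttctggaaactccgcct

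Inhibitory receptors, Siglecs and related immunoglobulin-type receptors numbered 27 tested genes, 23 of them higher and 2 lower in CD301b, with a median of 3.70. The list holds Sirpa, after which the SIRPa population is named. Cd33, a sialic acid receptor, was at 174, 166 and 141 CPM in CD301b and 1.35, 0.9502 and 1.88 CPM in XCR1. Cd300a, which binds phosphatidylserine, was at 73.4, 62.97 and 57.3 CPM and 2.84, 4.23 and 2.85 CPM. Tyrobp, the adaptor DAP12 (1.68 ± 0.12), and Ptpn6, the phosphatase SHP-1 recruited by such receptors (1.04 ± 0.11), were also higher. The lower genes were Treml4, a receptor for dead cells, at 2.43, 2.56 and 2.35 CPM and 24.2, 25.99 and 18.1 CPM, and Inpp5d, the phosphatase SHIP-1 (-0.52 ± 0.096). The Sirpb1 genes have near-identical copies and are uncertain.

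Integrin chains differed in both directions, with 7 of 22 tested higher in CD301b and 6 lower. Itgb5 was at 158, 158 and 153 CPM in CD301b and 7.28, 9.93 and 6.27 CPM in XCR1, and Itgax, the CD11c chain of dendritic cells, was higher by 0.64 ± 0.098. Itga8 was at 1.35, 3.23 and 2.45 CPM and 50.2, 40.1 and 35.5 CPM, and Itgal, of LFA-1, was lower (-1.26 ± 0.12). Of 28 other adhesion molecules, 11 were higher and 7 lower. L1cam was at 98.6, 103 and 83.1 CPM in CD301b and 2.74, 3.61 and 7.28 CPM in XCR1, and Cadm3 at 85.9, 85.1 and 84.3 CPM and 3.74, 3.85 and 6.22 CPM. Cadm1, its relative in cDC1, was the reverse (-2.47 ± 0.15), as was Cd81 (-1.41 ± 0.15).

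More cell cycle genes were lower than higher in CD301b. Of 39 tested, 20 were lower, 4 were higher and 15 did not pass, with a median of -0.58. Mki67 was at 486, 443 and 555 CPM in CD301b and 897, 703 and 990.2 CPM in XCR1. Top2a, a topoisomerase of dividing cells, was at 301, 302 and 270.3 CPM and 475, 451 and 613 CPM. Cdk1, the mitotic kinase, was at 27.3, 22.01 and 19.1 CPM and 67.8, 55.4 and 64.2 CPM. Each was lower in every CD301b library (-0.80 ± 0.14, -0.82 ± 0.12 and -1.45 ± 0.19). Without XCR1 replicate 3, the XCR1 library with the most Rag1, 12 genes were lower and 3 higher. Without CD301b replicate 1, 18 were lower and 2 higher. Thymocyte gene sums were 746, 1193 and 1578 CPM in CD301b and 452, 349.7 and 1430.4 CPM in XCR1. The part of thymocyte transcripts of either population in these counts was not tested.

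CD301b was higher for 4 and lower for 1 of 15 BCL2 family genes. Over all tested genes, 13.5% were higher and 9.12% lower. Bcl2l11, the death-promoting BIM, was at 109.5, 117 and 116 CPM in CD301b and 55.4, 57.8 and 49.3 CPM in XCR1. The survival gene Bcl2 was at 21.4, 41.4 and 45.7 CPM and 13.2, 14.01 and 14.4 CPM, and Bid at 13.4, 13.9 and 8.22 CPM and 36.6, 36.2 and 30.7 CPM. Bcl2l11 and Bcl2 were higher (1.08 ± 0.12 and 1.38 ± 0.25) and Bid lower (-1.54 ± 0.24), and Mcl1 did not pass (adjusted p = 0.268).

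Genes of cholesterol efflux, targets of the nuclear receptor LXR among them, included 10 of 18 higher in CD301b. None was lower by edgeR with TMM factors over all 9 libraries or by limma-voom. There was 1 lower gene in each of 6 other counts: by DESeq2, with RLE factors, with upper quartile factors, with a mean of at least 5 CPM required, at an unadjusted p under 0.05, and without XCR1 replicate 3. Abca1, the efflux transporter, was at 284, 251 and 279 CPM in CD301b and 8.13, 7.36 and 19.5 CPM in XCR1, and Apoe, which accepts the cholesterol, at 1305, 1467 and 1168 CPM and 25.7, 33.3 and 79.3 CPM. Nr1h3, which encodes LXRα, was at 31.8, 31.5 and 35.2 CPM and 0.349, 0.3801 and 2.701 CPM. In XCR1 all 3 were highest in replicate 3, and they did not overlap with CD301b (4.54 ± 0.38, 4.83 ± 0.47 and 4.83 ± 0.67). Apoe is also on the macrophage list.

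Immediate early and dissociation genes, which can respond to the preparation of cells, included 8 of 23 higher and 4 lower in CD301b. Egr1 was at 67.1, 82.7 and 61.7 CPM in CD301b and 113, 135 and 94.7 CPM in XCR1, and Atf3 was higher by 1.14 ± 0.14. Egr1, a growth-responsive factor, was lower in every CD301b library (-0.70 ± 0.15). Without CD301b replicate 3, 5 were higher and 4 lower.

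Transcripts known from other cells were measured in the same libraries. Of 20 macrophage genes, 19 were higher in CD301b and 1, Cd5l, did not pass (adjusted p = 0.514), with a median of 4.36. Their summed level was 3983, 3932 and 3526 CPM in CD301b, 279, 271 and 337 CPM in XCR1 and 7413, 6583 and 7559 CPM in SIRPa. Adgre1, which encodes F4/80, was at 116, 118 and 87.5 CPM in CD301b and 3.44, 1.995 and 4.53 CPM in XCR1. The defining genes Mertk, Siglec1 and Timd4 were read in CD301b at 40.1 ± 3.22, 51.4 ± 3.36 and 60.5 ± 12.6 CPM, and Cd5l was at 0.279, 0.2096 and 0.147 CPM there. Mertk did not pass with only the 6 libraries fitted (adjusted p = 0.0631). Of 14 monocyte genes, 10 were higher and 1 (Mpeg1) lower, and their sums were 4716, 4565 and 4186 CPM in CD301b and 3702, 3899.6 and 3499.9 CPM in XCR1. The list holds Lyz2, Csf1r and Ccr2 of the cDC2 list, with their levels given above. Mpeg1, a pore-forming protein of phagocytes, was at 823, 621 and 617 CPM in CD301b and 3531, 3734 and 3216 CPM in XCR1. It made up most of the monocyte sums in XCR1 and a small part of those in CD301b. Apart from Mpeg1, the macrophage and monocyte genes that passed differed in the same direction as most uptake, Fc receptor, complement and cholesterol efflux genes. The part of macrophage and monocyte transcripts in those results was not tested.

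Plasmacytoid dendritic cell genes included 8 of 14 higher and 1 lower in CD301b, with sums of 1146, 1038 and 1110.4 CPM and 559, 561 and 518 CPM. The list holds Clec10a, which is on the cDC2 list too. It also holds Tcf4 and Runx2, given above among the transcription factors higher in CD301b. Siglech was at 39.5, 37.1 and 46.2 CPM in CD301b and 7.43, 4.13 and 11.6 CPM in XCR1, and the transcription factor gene Spib was at 73.1, 54.9 and 52.8 CPM and 3.89, 5.13 and 3.91 CPM. The lower gene, Irf7 (adjusted p = 0.03696), lost its call without CD301b replicate 3 or 4 or XCR1 replicate 1 or 2 (adjusted p up to 0.142). The part of such cells in the difference of Tcf4 was not tested.

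Thymocyte and T cell genes summed to 746, 1193 and 1578 CPM in CD301b and 452, 349.7 and 1430.4 CPM in XCR1, so that the groups overlapped. Of 29 tested, 2 were higher in CD301b, Gata3 (adjusted p = 0.0336) and Cd4, which is also on the cDC2 list. Cd4 was at 209, 195 and 240.4 CPM against 15.1, 17.3 and 39.5 CPM. Without XCR1 replicate 3, 12 of the thymocyte and T cell genes were higher. Gata3 no longer passed by limma-voom (adjusted p = 0.186), with only the 6 libraries fitted (0.0638), or when 1 of XCR1 replicates 1 and 2, CD301b replicates 3 and 4 and SIRPa replicate 3 was left out (adjusted p up to 0.166). Granulocyte genes summed to 48.3, 62.5 and 51.3 CPM in CD301b and 1.796, 1.43 and 56.8 CPM in XCR1, with a median log2 fold change of -3.15 over 9 tested genes. The XCR1 level came mostly from replicate 3, and the median without that library is not given. Without it, the log2 fold change of Mpo, on this list, was 4.20. By edgeR 2 granulocyte genes were higher in CD301b, Cxcr2 (6.42 ± 0.94) and Csf3r (5.77 ± 0.92), and 7 did not pass. There were 2 lower genes by DESeq2, 2 at an unadjusted p under 0.05, 3 without a filter on low counts, 2 without CD301b replicate 3 and 1 without XCR1 replicate 1. By limma-voom 0 were lower. Markers of thymic epithelium summed to 183, 192 and 149 CPM and 90.8, 117 and 103 CPM, in which Epcam was at 99.5 ± 15.1 CPM in CD301b and 31.3 ± 7.01 CPM in XCR1. Epcam is also on the cDC2 list.

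**Figure D5:**
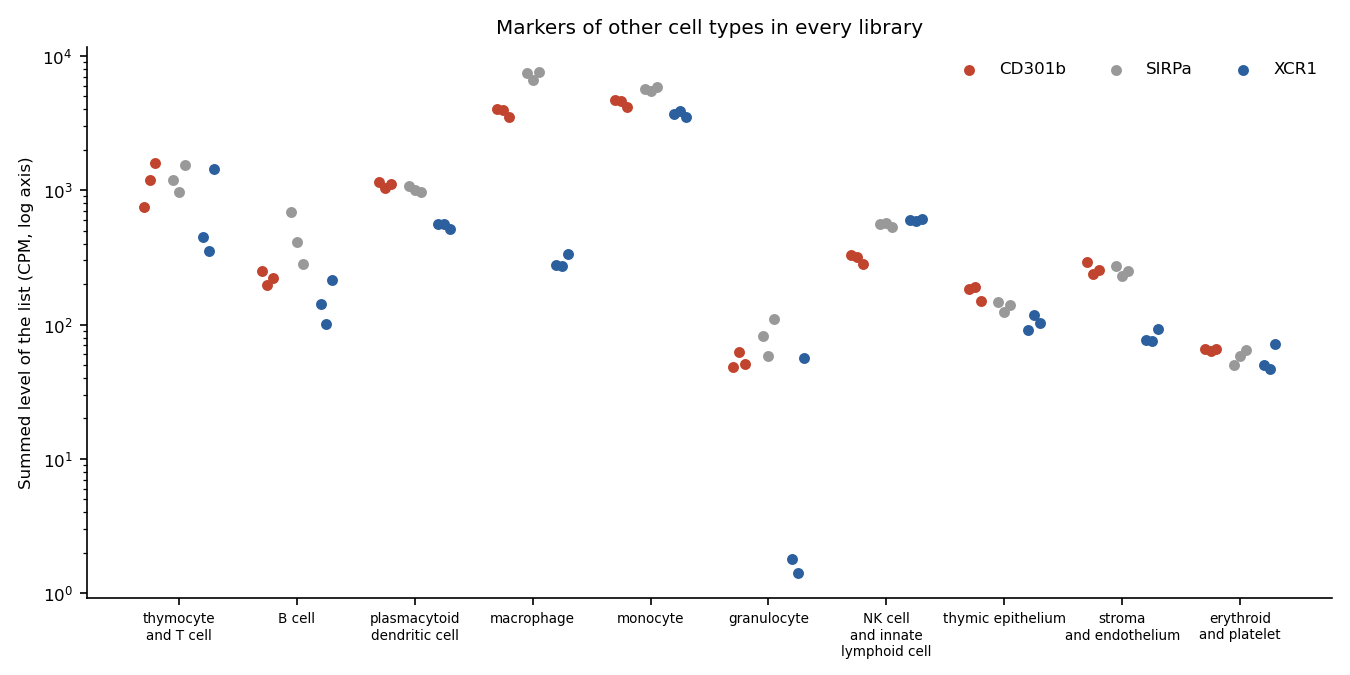
Summed level (CPM, log axis) of marker lists of other cell types, with a point per library for CD301b (red), SIRPa (grey) and XCR1 (blue). Macrophage sums were 3983, 3932 and 3526 CPM in CD301b against 279, 271 and 337 CPM in XCR1, and XCR1 replicate 3 is the high blue point for thymocyte and granulocyte genes.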

How the data were processed

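RNA of sorted thymic dendritic cells was made into stranded total RNA libraries with the Clontech Pico kit, per the labels' protocols. The authors deposited raw counts per gene symbol, used here as deposited; the submitters' processing notes name FastQC, Trimmomatic, HISAT2, SAMtools, featureCounts (Subread) and edgeR and the build mm10. The sources used here give no versions, annotation or strand setting, so genes that overlap or have near copies may share reads. Of 55302 symbols, 24 that a spreadsheet had turned into dates were left out.

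Genes passing filterByExpr (minimum count 10) were fitted over all 9 libraries with edgeR 4.0.16 (R 4.3.3; TMM factors, robust quasi-likelihood test), and CD301b was contrasted with XCR1, with Benjamini-Hochberg adjustment over 15417 genes and a threshold of 0.05. Library totals were 20211664 to 25393886 counts. Alternatives used RLE and upper quartile factors, DESeq2 1.42.0, limma-voom (limma 3.58.1), other filters, only the 6 libraries, a replicate block and each library left out. Positions of genes come from GENCODE M21 (GRCm38), matched by symbol for 15236 tested genes.

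Named genes are, in each direction, the 12 largest folds (mean of at least 10 CPM, no overlap) and 10 largest CPM differences, and from each of 40 lists up to 4 called genes per direction and the highest gene that did not pass; others were chosen after their values were seen. The compared groups, lists and rule were chosen with earlier results of these data known. Intervals and floors cover counting error only. Some genes are not reported here.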

Additional observations from a re-analysis of the deposited data

How the results depend on the processing

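Over 17 alternatives, of which 9 left out 1 library each, the genes higher in CD301b numbered 1650 to 2264 and the genes lower 1126 to 1670, and no gene called in the main analysis was called in the other direction. Leaving out 1 library gave 1698 to 1961 higher and 1126 to 1400 lower. With a mean of at least 5 CPM required, which tests fewer genes, 907 genes were at least 2-fold higher, against 1366. Upper quartile factors lowered the share of calls that were higher to 53.4%, from 59.7%. The labels' replicate numbers were not shown to pair the libraries: for the shared numbers 1 and 3, deviations from group means correlated at 0.030 and -0.0076 across 9857 genes. With the replicate block, 1745 genes were higher and 1168 lower, and of MHC class I genes 1 was higher and 12 lower. Adjusted p-values under the block were over the threshold for Cd207 (0.0757), H2-Ob (0.0504), Mertk (0.0885), Gata3 (0.358), Irf7 (0.154), Nod2 (0.105), Rfxap (0.0553), Skil (0.0561), Tyk2 (0.0866) and Vav1 (0.232), and under it for B2m (0.0468) and H2-Ab1 (0.0123). With only the 6 libraries fitted, Irf7 (0.0688), Nod2 (0.0604), Tlr9 (0.0596), Tyk2 (0.0595) and Vav1 (0.07403) did not pass, nor did Mertk and Gata3.

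The log2 fold changes of 5 named genes, none of which passed in the reported test, changed sign. Cd40 went to -0.0036 with RLE factors and with DESeq2, -0.046 with upper quartile factors and -0.0083 without a filter, and to -0.026 to 0.074 without single libraries. Il4ra was at -0.0034 to 0.28 without single libraries. Isg15 went to 0.019 with limma-voom and 0.24 with the replicate block, and ranged from -0.21 to 0.13 without single libraries. Rag1 went to 0.66 with limma-voom and ranged from -1.08 to 2.14, and Mpo ranged from -8.67 to 4.20, the upper values without XCR1 replicate 3. Without a filter Mpo passed as lower (-4.53, adjusted p = 0.0132). The cause was not tested. Depth limits genes of few reads, where 3 counts correspond to 0.119 to 0.150 CPM in 1 library.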

Other observations

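Over all 15417 tested genes, 13.5% were higher in CD301b and 9.12% lower, which the counts below can be set beside. Of 13 tested genes of natural killer and innate lymphoid cells, 7 did not pass, 3 passed as higher in CD301b and 3 as lower. Their sums were 327, 321 and 284 CPM in CD301b and 603, 593 and 610.2 CPM in XCR1. The list holds Kit and Ccl5, both lower in CD301b, whose levels given above made up most of the XCR1 sums. The sums therefore do not give the direction of its other genes. Of 8 tested genes of stroma and endothelium, Esam of the cDC2 list among them, 3 were higher and 1 was lower. A count of 2 lower was given by upper quartile factors, DESeq2, limma-voom and no filter, and 2 were higher and 2 lower without CD301b replicate 1. Il7r, the IL-7 receptor chain, was at 128, 112 and 96.7 CPM in CD301b and 8.73, 9.41 and 13.4 CPM in XCR1 (3.41 ± 0.18, adjusted p = 4.26e-12). Pecam1, the adhesion molecule CD31, was at 108, 102 and 103 CPM and 12.9, 9.69 and 19.6 CPM. The killer lectin receptor gene Klrd1 was at 33.9, 19.7 and 25.2 CPM and 3.84, 0.808 and 1.16 CPM, whereas Klrk1, which encodes NKG2D, was lower in CD301b at 23.7, 30.6 and 23.9 CPM and 56.4, 73.5 and 64.00 CPM. For these 4 genes the groups did not overlap. Ms4a1, which encodes the B cell protein CD20, had no read in CD301b and was at 2.44, 4.32 and 7.62 CPM in XCR1, while Blnk, a signalling adaptor of B cells and myeloid cells, was at 33.2, 25.4 and 32.1 CPM and 1.85, 1.14 and 4.87 CPM. Of the B cell list, 3 of 12 tested genes were higher and 2 lower in CD301b, and 1 to 3 were higher and 1 to 2 lower when single libraries were left out (the counts moved without CD301b replicate 1, 3 or 4 or XCR1 replicate 2 or 3). In cholesterol synthesis, 18 of 21 tested genes did not pass, and Srebf2, its regulator, was lower in CD301b at 183, 191 and 169 CPM against 331, 286 and 269.7 CPM (-0.71 ± 0.11, adjusted p = 3.02e-05).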
